A study of Mus musculus with 6 samples.

Results

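The genes described here are 10 heat shock proteins and chaperones, Hspa1a, Hspa1b, Hspb1, Dnajb1, Hsph1, Hsp90aa1, Hspa8, Hsp90ab1, Hspd1 and Hspa5, out of 23946 genes in the deposited expression table. They were taken by name. All 10 reached 1 FPKM (fragments per kilobase of transcript, scaled to the mapped fragments of the library, a level per length) in at least 1 library, as did 13064 genes in all, and 7 of the 10 reached it in every library. By common usage 6 of them are stress-inducible (Hspa1a, Hspa1b, Hspb1, Dnajb1, Hsph1 and Hsp90aa1) and 4 are constitutive (Hspa8, Hsp90ab1, Hspd1 and Hspa5).

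Heat shock proteins are chaperones that hold, fold or refold other proteins. In an unstressed cell the transcription factor HSF1 is kept inactive by chaperones, and when misfolded proteins draw these away, HSF1 binds heat shock elements in front of the inducible genes. Chaperones of the endoplasmic reticulum (ER) answer to a separate pathway, the unfolded protein response, and are abundant in cells that secrete much protein. The inducible HSP70 genes are also known to be switched on while tissue is being dissociated into single cells.

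RNA was measured in macrophages of young adult female C57BL/6 mice, sorted as CD45+CD11b+F4/80+ cells from the omentum (OM), a fat tissue with immune clusters called milky spots, and from mesenteric fat (MY). Both tissues were taken from naive mice (0 h) and from mice 24 h and 7 d after injection of ID8 cells, a mouse ovarian carcinoma line, into the peritoneal cavity. Tissue of 3 mice was pooled per tube and dissociated with an enzyme kit before the sort, and each of the 6 conditions has 1 library. The naive mice are labelled normal, so an effect of the injection and one of the cancer cells cannot be told apart, and the mice of each time point are different animals.

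With 1 library per condition there is no replicate error, and no test was made. Differences are therefore given as values, on the log2(FPKM + 1) scale, and a difference of at least 2-fold (1 on this scale) is set beside the share of all 13064 genes that differed as much. This scale understates the difference of genes near 0. All 8 macrophage markers were above 1 FPKM in every library, and their summed level was 7253 to 26457 FPKM in OM and 3158 to 4338 FPKM in MY. Lyz2 made up most of these sums, and without it the 7 others summed to 643, 1677 and 462 FPKM in OM and to 465, 759 and 587 FPKM in MY, with no constant order between the tissues. Genes of other cell types were present too. Neutrophil markers summed to 5867 to 14551 FPKM in OM against 230 to 661 FPKM in MY, and T cell markers to 26.8 to 134 FPKM in OM against 566 to 1145 FPKM in MY. In such bulk libraries, fewer cells of a type and less RNA per cell cannot be told apart.

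The inducible HSP70 genes were present in OM and nearly absent from MY. Hspa1a and Hspa1b encode the same class of cytosolic HSP70, made on demand, and lie next to each other on the minus strand of chromosome 17, Hspa1a at chr17:35106144-35109069 and Hspa1b at chr17:35093381-35096183 (NCBI37/mm9, GENCODE M1), with 9960 bases between them and 1 exon each. Hspa1a was at 31.2 FPKM in OM 0 h, 7.03 in OM 24 h and 8.22 in OM 7 d, and at 0.473, 0.494 and 0.459 FPKM in MY at the same times. Hspa1b was at 30.1, 3.91 and 9.17 FPKM in OM and at 0.719, 0.511 and 0.680 FPKM in MY. Every OM library was above every MY library for both genes, and the naive omentum was the highest of all 6.

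In naive mice the difference between the tissues was 4.45 (log2) for Hspa1a, a ratio of FPKM of 66.0, and 4.18 for Hspa1b, a ratio of 41.9. In OM 24 h both were lower than in OM 0 h, with differences of -2.00 for Hspa1a and -2.66 for Hspa1b on the log2 scale. They were still lower at 7 d, at -1.80 and -1.61. In MY the differences from MY 0 h lay between -0.19 and 0.02 at levels under 1 FPKM. On this scale MY 0 h stood at 0.56 for Hspa1a and 0.78 for Hspa1b. A 2-fold fall could therefore not be reached in MY, and the 2 tissues cannot be compared in this respect. The comparisons with OM 0 h share that 1 library, so the lower values after injection and the large tissue difference in naive mice rest in part on the same measurement.

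The 2 genes cannot be fully separated by short reads. Their coding sequences are 99.4% identical, with 8 mismatches and 3 gapped bases, and 1563 of the 2852 windows of 75 bases in Hspa1a (54.8%) occur in another coding transcript, nearly all of them in Hspa1b. The reads were paired, and single windows leave out a mate that falls in an unshared stretch. Shares of windows, here and below, can thus exceed the share of fragments with several matches. The sum of Hspa1a and Hspa1b is less sensitive to how reads were shared between them. It was 61.3, 10.9 and 17.4 FPKM in OM and 1.19, 1.004 and 1.14 FPKM in MY. The naive difference was thus 51.5-fold for the pair, against 10.9-fold at 24 h and 15.3-fold at 7 d.

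Promoters of Hspa1a, Hspb1, Hspd1 and Hspa5 are shown because these genes stand for the patterns described here. Each is the 250 bases before a RefSeq start on GRCm38.p6, a different build from the one the expression values used. Capitals mark a heat shock element in the first 3, either 2 units (GAANNTTC or TTCNNGAA) or, in Hspd1, overlapping 3-unit matches (GAANNTTCNNGAA or TTCNNGAANNTTC), and an ER stress element (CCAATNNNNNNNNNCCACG) in Hspa5. Hspa1a lies at chr17:34972157-34972406 on the minus strand, Hspb1 at chr5:135887669-135887918 on the plus strand, Hspd1 (the second of 2 listed starts) at chr1:55087933-55088182 on the minus strand, and Hspa5 at chr2:34771840-34772089 on the plus strand.
Hspa1a: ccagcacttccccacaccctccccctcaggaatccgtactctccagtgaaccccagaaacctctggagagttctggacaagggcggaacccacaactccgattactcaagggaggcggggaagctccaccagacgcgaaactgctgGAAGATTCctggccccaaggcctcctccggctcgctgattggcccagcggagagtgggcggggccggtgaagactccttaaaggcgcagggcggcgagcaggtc
Hspb1: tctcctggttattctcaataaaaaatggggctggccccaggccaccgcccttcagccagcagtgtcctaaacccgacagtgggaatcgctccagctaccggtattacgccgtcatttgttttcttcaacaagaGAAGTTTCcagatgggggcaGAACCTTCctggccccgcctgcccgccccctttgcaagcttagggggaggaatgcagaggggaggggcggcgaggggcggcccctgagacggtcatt
Hspd1: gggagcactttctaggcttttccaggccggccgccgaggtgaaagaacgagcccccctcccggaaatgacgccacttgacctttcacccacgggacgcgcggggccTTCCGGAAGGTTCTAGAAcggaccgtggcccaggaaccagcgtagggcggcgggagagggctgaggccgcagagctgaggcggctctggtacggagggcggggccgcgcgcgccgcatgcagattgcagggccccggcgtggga
Hspa5: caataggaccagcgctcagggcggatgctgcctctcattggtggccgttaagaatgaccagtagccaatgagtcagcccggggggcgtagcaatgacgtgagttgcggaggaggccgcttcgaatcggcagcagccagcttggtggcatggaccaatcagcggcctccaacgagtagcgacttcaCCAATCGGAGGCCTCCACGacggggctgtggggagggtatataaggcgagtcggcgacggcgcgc
The promoter of Hspa1b (chr17:34959239-34959488, minus strand) differs from that of Hspa1a at 3 of 250 positions, C44T, T47C and T249G, counted from 1 at the 5′ end of the printed sequence with the Hspa1a base first, and holds the same element at the same place, 104 to 97 bases before the start.

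Of the 7 members with a promoter entry, 5 held a 2-unit heat shock element on either strand (Hspa1a, Hspa1b, Hspb1, Hsph1 and Hspd1), a short motif held by 17.0% of 27025 genes in their promoter windows of 300 bases (15.1% of 32851 windows). The 3-unit form, held by 0.662% of genes (0.603% of windows), was present in Hsph1 and Hspd1, and every 3-unit match also holds the 2-unit one. The ER stress element, held by 0.137% of genes (0.119% of windows), was present in Hspa5 alone of the 7. Neither kind was found in the windows of Dnajb1, and Hsp90aa1, Hspa8 and Hsp90ab1 had no entry. Matches are letters only, and the members that hold a heat shock element did not share a pattern across libraries. Hspa1a and Hspa1b were highest in OM 0 h, Hspb1 in OM 7 d, and Hspd1 differed by at most 0.79 (log2) among all 6 libraries.

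**Figure D1:**
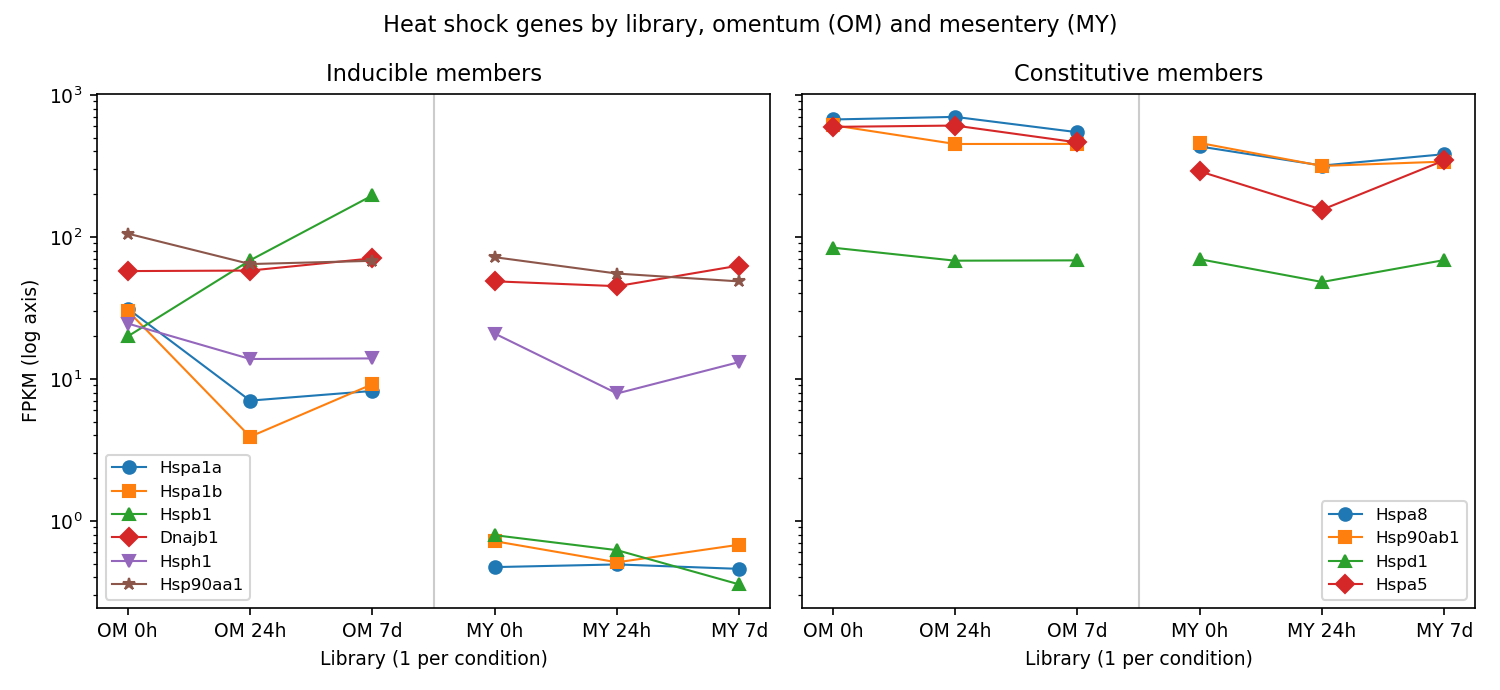
FPKM (log axis) of the 6 inducible members (left) and 4 constitutive members (right) in the 6 libraries, 1 point per library, with lines joining the times of 1 tissue. Hspa1a, Hspa1b and Hspb1 lie under 1 FPKM in MY and between 3.91 and 196 FPKM in OM, and the 7 others stay within 7.89 to 700 FPKM in all libraries.

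Hspa8 (HSC70) is the cytosolic HSP70 that cells make all the time, and it served as a reference for the inducible pair within each library. Its level was 671, 699.6 and 545 FPKM in OM and 433, 318 and 382 FPKM in MY, so it ranked between 117th and 256th of the 13064 genes in every library. Hspa1a and Hspa1b together amounted to 9.15% of the Hspa8 level in OM 0 h, 1.56% in OM 24 h and 3.19% in OM 7 d. In MY the same ratio was 0.275%, 0.316% and 0.298%. Even in the naive omentum the constitutive HSP70 was thus 10.9 times as abundant per length as the inducible pair. Of the 75-base windows of the Hspa8 transcript, 69.4% also occur elsewhere in the genome, so its level depends on how reads with several matches were counted.

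Immediate early genes, which like inducible HSP70 are known to respond to tissue handling, were also higher in OM. Each of the 12 genes of a list with Fos, Jun, Egr1 and Atf3 exceeded its MY level by at least 2-fold at each of the 3 times. Of all genes 8.18%, 13.9% and 14.1% were as much higher in OM at these times. The median differences of the 12 were 3.24, 3.35 and 3.70 (log2). Their summed levels were 5259, 8500 and 7477 FPKM in OM against 704, 813 and 764 FPKM in MY. Within OM the immediate early genes did not follow the HSP70 pair. Where Hspa1a and Hspa1b were lower after injection, the median of the 12 genes was higher, by 0.56 at 24 h and 0.50 at 7 d. B cell markers, 6 of 6 above 1 FPKM in every library, were lower after injection in OM as the HSP70 pair was, with sums of 4123, 925 and 2521 FPKM in OM and 822, 538 and 1578 FPKM in MY. This course was not particular to B cells. Sums of natural killer cell markers were 273, 18.7 and 134 FPKM in OM, and those of T cell, mast cell and endothelial markers were also lower after injection. Natural killer and T cell sums were higher in MY than in OM each time, unlike the HSP70 pair. The part of tissue handling or of any cell type in the HSP70 values was not tested.

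**Figure D2:**
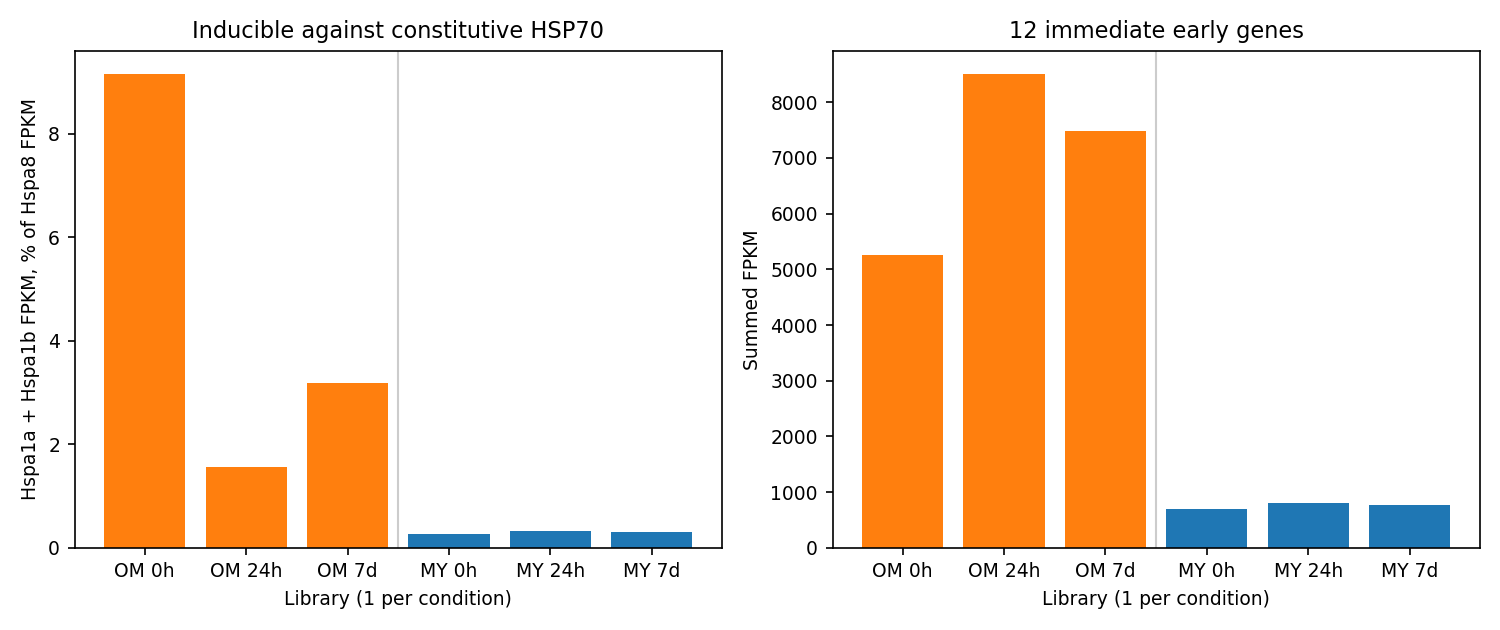
Summed FPKM of Hspa1a and Hspa1b as a percent of the Hspa8 FPKM (left) and summed FPKM of 12 immediate early genes (right), 1 bar per library, OM in orange and MY in blue. The HSP70 ratio is highest in OM 0 h (9.15%), while the immediate early sum is highest in OM 24 h (8500 FPKM).

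The genes whose profile over the 6 libraries lay nearest to the pair were looked up among 7998 genes with at least 10 FPKM in 1 library, by the root mean square difference of log2(FPKM + 1) after each gene's own mean was subtracted. For Hspa1a they were Cd209a, a lectin of dendritic cells and macrophages, at 0.225, then Hspa1b at 0.319 and Lmo7 at 0.451. For Hspa1b they were Lmo7 at 0.217, Hspa1a at 0.319 and Zbtb32, a transcription repressor of lymphocytes, at 0.344. Cd209a was at 264, 104 and 82.0 FPKM in OM and at 11.8, 15.3 and 13.2 FPKM in MY. These distances describe 6 points per gene and carry no test. The 1 added to each FPKM shrinks the differences of Hspa1a and Hspa1b, which were under 1 FPKM in MY, and so affects the distances.

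Hspb1 (HSP27), a small heat shock protein that binds actin and unfolding proteins without using ATP, had a different course. It was at 19.9 FPKM in OM 0 h, 68.4 in OM 24 h and 196 in OM 7 d, and at 0.793, 0.622 and 0.357 FPKM in MY. Each OM library was above each MY library, and within OM the level was higher at each later time. Hspb1 moved from the 4276th rank among the 13064 genes in OM 0 h to the 449th in OM 7 d, while in MY it stayed at the 11497th rank or lower. The differences between the tissues were 3.54, 5.42 and 7.18 (log2) at 0 h, 24 h and 7 d. Within OM the differences from 0 h were 1.73 at 24 h and 3.23 at 7 d.

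Markers of mesothelial cells and fibroblasts were likewise far higher in OM than in MY, and within OM each list shared part of the course of Hspb1. The 8 mesothelial and epithelial markers, among them Msln and Krt19, summed to 94.5, 989 and 986 FPKM in OM, with 8 of 8 above 1 FPKM each time, and to 1.43 to 1.45 FPKM in MY, with 0 of 8 above 1 FPKM. Msln, Upk3b, Krt19, Wt1 and Lrrn4 were each below 0.1 FPKM in MY 0 h and MY 24 h. The 6 fibroblast markers summed to 345, 221 and 1190 FPKM in OM and to 2.08 to 3.10 FPKM in MY, where 1 of 6 was above 1 FPKM and Pdgfra was below 0.1 FPKM each time. From OM 0 h to OM 24 h, where Hspb1 was higher, 8 of 8 mesothelial and epithelial markers were higher, with a median of 3.09 (log2). In the same step 6 of 6 fibroblast markers were lower, with a median of -0.65. From OM 24 h to OM 7 d, where Hspb1 was higher again, 6 of 6 fibroblast markers were higher, with a median of 1.99. The mesothelial sum was then nearly level, with 5 of 8 markers higher, 3 lower and a median of 0.20. The 3 genes nearest to Hspb1 in profile were Pcolce, Fbln2 and Gas6, of which Pcolce and Fbln2 belong to the extracellular matrix, at distances of 0.359, 0.368 and 0.380. They fall outside the rule for naming genes and were chosen after their values were seen. The part of such cells in the Hspb1 level was not tested. Of the 75-base windows of the Hspb1 transcript, 56.1% also occur elsewhere in the genome.

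Other small heat shock proteins did likewise in part. Of 8 further genes of the family, 5 reached 1 FPKM in at least 1 library. Hspb8, a partner of the co-chaperone BAG3, was at 2.74, 25.0 and 33.3 FPKM in OM, and in MY it was listed at 0 in 0 h and 7 d and at 0.0875 FPKM in 24 h. Cryab (alpha B crystallin) was at 6.97, 22.3 and 32.9 FPKM in OM and at 1.87, 1.42 and 1.80 FPKM in MY. Hspb8 passed the filter of 1 FPKM through OM alone. Hspb8 and Cryab were at least 2-fold higher in OM than in MY at all times and higher at 24 h and 7 d than at 0 h within OM. Between the tissues 8.18%, 13.9% and 14.1% of all genes were as much higher in OM at 0 h, 24 h and 7 d. Within OM 11.9% and 11.0% were at least 2-fold higher at 24 h and 7 d than at 0 h. Cryaa went the other way, at 6.92, 6.17 and 4.08 FPKM in MY and at 0 (listed), 1.16 and 0.283 FPKM in OM. Hspb2 reached 4.53 FPKM in OM 7 d and 0.994 FPKM or less in each other library, and Hspb6 lay between 1.03 and 5.24 FPKM with no order between the tissues.

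Serpinh1 (HSP47), a chaperone of the ER that serves collagen, followed the same course as Hspb1. It was at 40.0, 87.3 and 110.2 FPKM in OM and at 0.775, 0.367 and 0.231 FPKM in MY. The tissue differences were 4.53, 6.01 and 6.50 (log2), the highest of the 23 ER genes at each time.

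**Figure D3:**
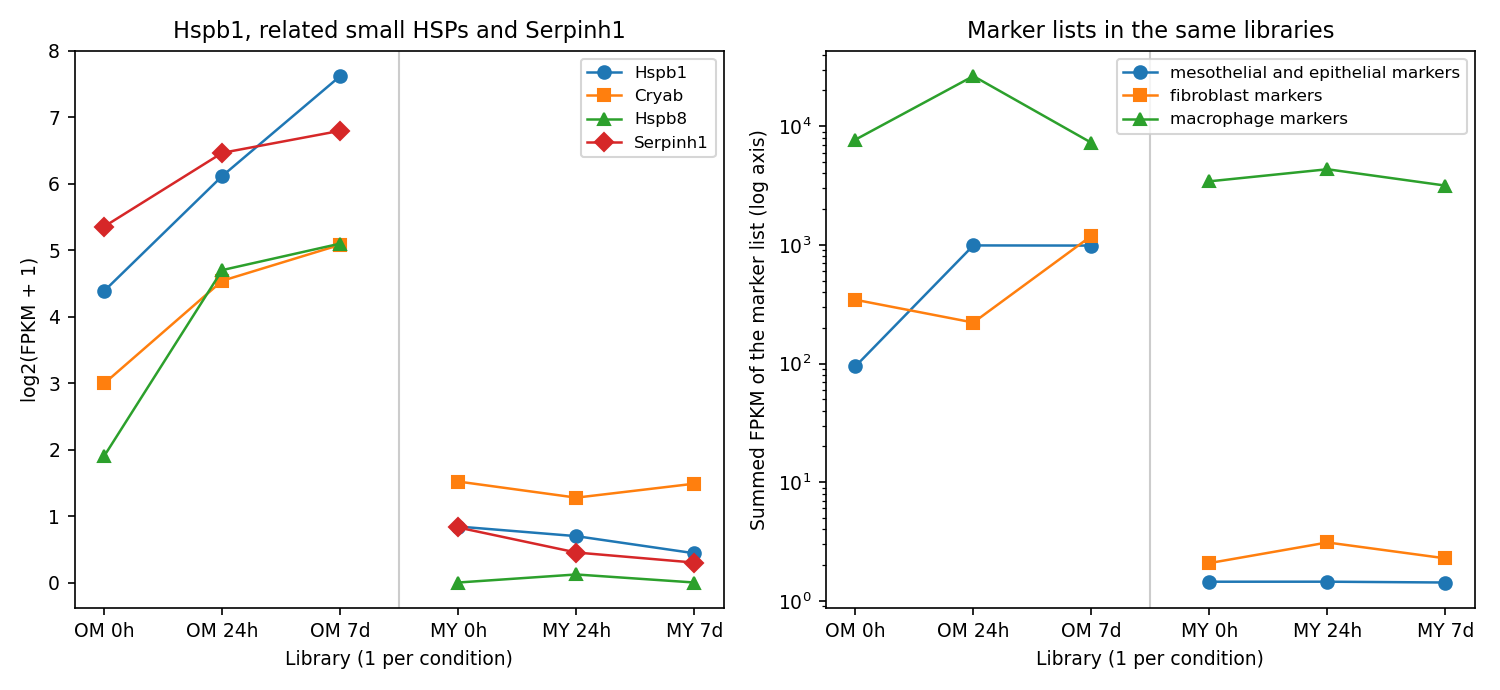
Left, log2(FPKM + 1) of Hspb1, Cryab, Hspb8 and Serpinh1 by library. Right, summed FPKM (log axis) of the mesothelial and epithelial, fibroblast and macrophage marker lists, with lines joining the times of 1 tissue. The 4 genes are higher in each OM library than in any MY library, and the mesothelial and epithelial sum lies at 94.5 to 989 FPKM in OM and at 1.43 to 1.45 FPKM in MY.

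The other 3 inducible members were expressed at like levels in both tissues. Dnajb1 (HSP40), which delivers clients to HSP70 and stimulates its ATPase, was at 57.4, 57.9 and 70.6 FPKM in OM and at 48.6, 45.0 and 62.8 FPKM in MY. Its highest and lowest libraries differed by 0.64 (log2), the smallest range among the 10 members. Although a standard inducible gene, it did not go with Hspa1a and Hspa1b, whose ranges were 4.46 and 4.37.

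Hsph1 (HSP110), a nucleotide exchange factor for HSP70, was at 24.5, 13.8 and 13.9 FPKM in OM and at 20.8, 7.89 and 13.1 FPKM in MY. The naive library was the highest in each tissue, and the differences from 0 h were -0.79 and -0.77 (log2) in OM and -1.30 and -0.63 in MY. At MY 24 h it was the 1 member at least 2-fold lower than at MY 0 h, where 1.52% of all genes were as much lower.

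Hsp90aa1, the inducible HSP90 of the cytosol, was at 105.4, 64.3 and 67.8 FPKM in OM and at 71.9, 55.1 and 48.6 FPKM in MY. Its constitutive counterpart Hsp90ab1 was at 611, 451 and 451 FPKM in OM and at 458, 316 and 339 FPKM in MY. Both were highest at 0 h in each tissue, and none of their differences reached 2-fold. Hsp90ab1 was between 5.73 and 7.01 times as abundant per length as Hsp90aa1 in all 6 libraries, so their ratio varied far less than that of inducible to constitutive HSP70. Hsp90aa1 and Hsp90ab1 had the nearest profiles of any pair of members, at a distance of 0.115. In the transcript of Hsp90aa1, 67.0% of 75-base windows occur elsewhere in the genome, against 1.47% for Hsp90ab1.

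Hspd1 (HSP60), the chaperonin of mitochondria, was at 83.9, 68.0 and 68.3 FPKM in OM and at 69.6, 48.1 and 68.7 FPKM in MY. Hspe1 (HSP10) forms the lid of the same chamber, and its gene overlaps that of Hspd1 head to head by 112 bases on chromosome 1. Hspe1 was at 127.5, 132.5 and 118 FPKM in OM and at 149, 107 and 95.6 FPKM in MY. The tissues overlapped for both genes. In the Hspd1 transcript, 44.3% of 75-base windows occur elsewhere in the genome. None of the 10 genes of the mitochondrial chaperone list, Hspe1 and Hspa9 among them, differed by 2-fold in any of the 9 comparisons. In these, 0.498% to 14.1% of all genes were as much higher and 1.52% to 10.2% lower.

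Hspa5 (BiP), the HSP70 of the ER lumen, was at 595, 608 and 462 FPKM in OM and at 289, 155 and 346 FPKM in MY. Every OM library was above every MY library. Within MY the 24 h library was low, by -0.89 (log2) against 0 h, and the 7 d library was 1.15 above the 24 h one. Within OM the differences from 0 h were 0.03 and -0.36. The tissue difference was accordingly 1.04 at 0 h, 1.96 at 24 h and 0.42 at 7 d. When each library was rescaled to the same FPKM sum, the naive difference came to 0.80 and the MY 24 h difference to -1.01, so both crossed the 2-fold mark.

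Other ER chaperones moved with Hspa5 in MY. Of 23 genes of the ER list, which does not hold Hspa5, 8 were at least 2-fold lower in MY 24 h than in MY 0 h and 0 were higher, with a list median of -0.55 against a median of 0.00 over all genes, of which 1.52% were as much lower and 2.80% higher. They were Creld2, Hsp90b1, Pdia4, Manf, Calr, Pdia6, Hyou1 and Sdf2l1, which are chaperones, co-chaperones, folding enzymes and secreted factors of the ER. The same number was lower after the rescaling to equal sums. In MY 7 d against MY 24 h, 6 of the 23 were at least 2-fold higher (Pdia4, Creld2, Pdia6, Manf, Hsp90b1 and Sdf2l1) and 0 lower, where 1.84% of all genes were higher and 3.54% lower. In MY 7 d against MY 0 h none differed by 2-fold. The MY 24 h library is the shared side of the first pair of comparisons, so this dip is 1 measurement. The sums of B cell markers (822, 538 and 1578 FPKM in MY) and of T cell markers (999.6, 566 and 1145 FPKM) were also lowest there among the MY libraries, and their part was not tested.

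Hsp90b1 (GRP94), the HSP90 of the ER, was at 458, 267 and 218 FPKM in OM and at 311, 124 and 267 FPKM in MY. Pdia6, a protein disulfide isomerase and the second nearest gene to Hspa5 in profile (0.157), was at 273, 266 and 163 FPKM in OM and at 146, 66.5 and 147 FPKM in MY. Creld2 was at 92.8, 90.5 and 65.9 FPKM in OM and at 92.3, 30.1 and 76.2 FPKM in MY. In all 3 the lowest MY library was that of 24 h. OM differed among them, since Hsp90b1 was lower at 24 h and 7 d than at 0 h, whereas Pdia6 and Creld2 were at about their 0 h level at 24 h.

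Between the tissues, the ER genes past 2-fold lay on the side of OM. They were 4 of 23 at 0 h (Serpinh1, Atf6, Pdia4 and Dnajb9), 14 at 24 h and 3 at 7 d (Serpinh1, Atf4 and Dnajb9). Of all genes 8.18%, 13.9% and 14.1% were as much higher in OM at these times, so the count at 7 d is no more than the background. After rescaling to equal sums the 24 h count was 11 higher and 1 lower. The factor Xbp1, which drives many ER chaperone genes, was at 185, 251 and 189 FPKM in OM and at 123, 82.0 and 157 FPKM in MY, with its lowest value in MY 24 h as well. Ddit3 (CHOP), which is known to rise under lasting ER stress, was at 14.8, 12.0 and 17.3 FPKM in OM and at 26.9, 23.9 and 18.2 FPKM in MY, so every MY library was above every OM library. Ddit3 and Xbp1 at the other comparisons were named after their values were seen. Of the 19 ER genes with a promoter entry, 6 held the ER stress element printed above for Hspa5 (Hsp90b1, Calr, Canx, Pdia6, Dnajc3 and Creld2).

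Within OM the ER list showed few differences of that size. Serpinh1 and P4hb, a disulfide isomerase and subunit of collagen prolyl hydroxylase, were at least 2-fold higher at 24 h than at 0 h, and P4hb was at 238, 479 and 300.1 FPKM at the 3 times. These 2 of 23 are no more than the background of 11.9% of all genes. At 7 d against 0 h, Serpinh1 was higher and Hsp90b1 lower, at -1.07 (log2), where 11.0% of all genes were higher and 1.96% lower. In OM 7 d against OM 24 h, Sdf2l1 was lower, at -1.26, as were 4.52% of all genes. These calls depend on the scale, since with libraries rescaled to equal sums 0 genes of the list were higher and 2 lower at 24 h against 0 h, and 1 was higher and 0 lower at 7 d against 24 h.

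**Figure D4:**
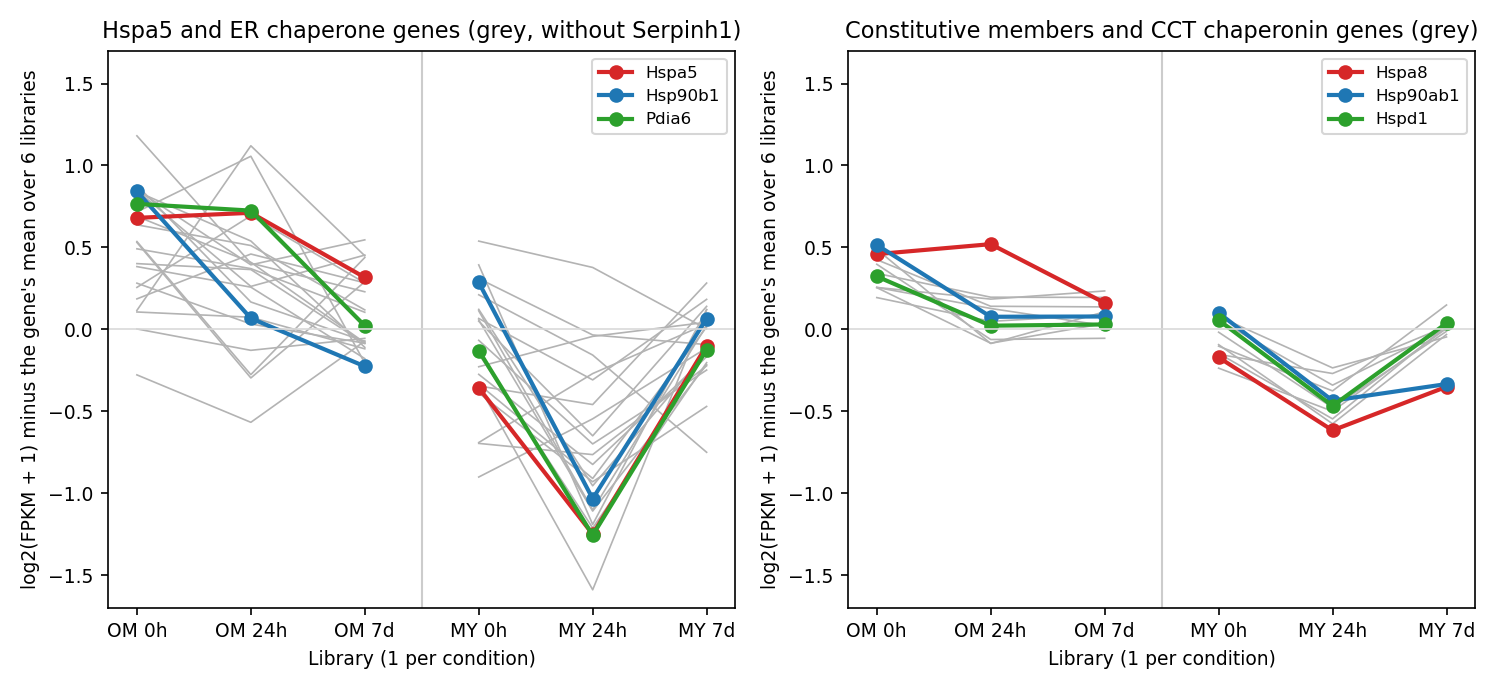
log2(FPKM + 1) minus each gene's mean over the 6 libraries, with lines joining the times of 1 tissue. Left, Hspa5, Hsp90b1 and Pdia6 in colour with the other ER genes in grey (Serpinh1 is left out). Right, Hspa8, Hsp90ab1 and Hspd1 in colour with the 8 CCT chaperonin genes in grey. MY 24 h is the lowest library for the 3 coloured genes on both sides, and the CCT genes show no difference of 2-fold.

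Of the factors that act on these genes, Hsf1, the main activator of the heat shock response, was at 30.5, 21.0 and 27.6 FPKM in OM and at 34.1, 22.9 and 24.6 FPKM in MY, and no difference reached 2-fold. The activity of HSF1 is set largely on the protein, which was not measured. Hsf2 was low, at 0.752, 0.667 and 0.452 FPKM in OM and at 1.60, 2.65 and 0.997 FPKM in MY, and each MY library was above each OM library, by at least 2-fold at 24 h (-1.13, OM against MY on the log2 scale). Hsf4 was at 1.38 FPKM in MY 0 h and under 1 FPKM in the 5 other libraries, and it was at least 2-fold lower in OM at 0 h (-1.13).

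Of 24 cytosolic co-chaperones, 0 differed by 2-fold between the tissues in naive mice, where 8.18% of all genes were higher in OM and 8.05% lower. At 24 h Hspa4l, of the HSP110 family, was higher in OM and Dnajb2 was lower, and at 7 d Dnajb4 was higher in OM. Among all genes 13.9% were as much higher and 10.2% lower at 24 h, and 14.1% and 4.99% at 7 d. Bag3, itself a known target of HSF1, was at 8.45, 16.0 and 13.2 FPKM in OM and at 8.98, 13.6 and 8.75 FPKM in MY. Dnaja1 was at 22.1, 19.8 and 19.5 FPKM in OM and at 23.5, 14.3 and 18.6 FPKM in MY. Thus Bag3, Dnaja1, Dnajb1 and Hsph1 were all within 2-fold between the naive tissues, where Hspa1a and Hspa1b differed by more than 4 on the log2 scale.

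Fkbp5, a co-chaperone of HSP90 on steroid receptors and a known glucocorticoid target, was at 13.0, 24.7 and 34.4 FPKM in OM and at 15.1, 44.7 and 26.1 FPKM in MY. It was the 1 co-chaperone of 24 at least 2-fold higher in MY 24 h than in MY 0 h, by 1.51 (log2), where 2.80% of all genes were. In OM it was 1.34 higher at 7 d than at 0 h. Hspa4l was at 3.07, 9.65 and 7.21 FPKM in OM, which is 1.39 higher at 24 h and 1.01 higher at 7 d than at 0 h. Of all genes 11.9% and 11.0% were at least 2-fold higher in OM at 24 h and 7 d than at 0 h. The 8 subunits of CCT, the cytosolic chaperonin for actin and tubulin, showed no 2-fold difference in any comparison. Across the comparisons 0.498% to 14.1% of all genes were as much higher and 1.52% to 10.2% lower. For 4 of the 8 every OM library was above every MY library, as for 16.7% of all genes.

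Counted over all members, Hspa1a, Hspa1b, Hspb1 and Hspa5, 4 of 10, exceeded MY by at least 2-fold in naive OM and 0 of 10 were lower, where 8.18% of all genes were higher and 8.05% lower. At 24 h 5 of 10 were higher, with Hspa8 (1.14 on the log2 scale) as the fifth, and 0 lower, against 13.9% and 10.2% of all genes. At 7 d Hspa1a, Hspa1b and Hspb1 were higher, 3 of 10, and 0 were lower, against 14.1% and 4.99% of all genes. With libraries rescaled to equal sums Hspa8 at 24 h came to 0.82. Every OM library was above every MY library for 5 of the 10, Hspa1a, Hspa1b, Hspb1, Hspa8 and Hspa5, and this held for 16.7% of all genes. The reverse order held for 0 of 10 members and 17.7% of all genes. The count of members with every OM above every MY library is 8 without MY 0 h, 6 without MY 7 d and 5 without any 1 of the other 4 libraries. Leaving a library out can raise this count but not lower it. The share of all genes was not recomputed, so these counts have no background. A gap of at least 2-fold between the lowest OM and the highest MY library was left for 3 of 10 (Hspa1a, Hspa1b and Hspb1), and for 2.73% of all genes, against 0 of 10 and 2.12% in the reverse direction.

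Over time, OM 24 h against OM 0 h had 1 member higher (Hspb1, background 11.9%) and 2 lower (Hspa1a and Hspa1b, background 6.45%). OM 7 d against OM 0 h had the same 3 members in the same directions, with backgrounds of 11.0% and 1.96%. OM 7 d against OM 24 h had Hspb1 and Hspa1b higher, by 1.504 and 1.05 (log2), and 0 lower, where 7.03% of all genes were higher and 4.52% lower. MY had fewer members past 2-fold. Hspa1a, Hspa1b and Hspb1 were under 1 FPKM in MY, where a 2-fold fall cannot be reached on this scale. The counts of the 2 tissues are therefore not alike. At 24 h against 0 h MY had Hsph1 lower and 0 members higher, where 1.52% of all genes were lower and 2.80% higher. At 7 d against 0 h it had 0 members past 2-fold, where 0.498% of all genes were higher and 2.29% lower. At 7 d against 24 h Hspa5 was higher and 0 members lower, where 1.84% and 3.54% of all genes were.

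**Figure D5:**
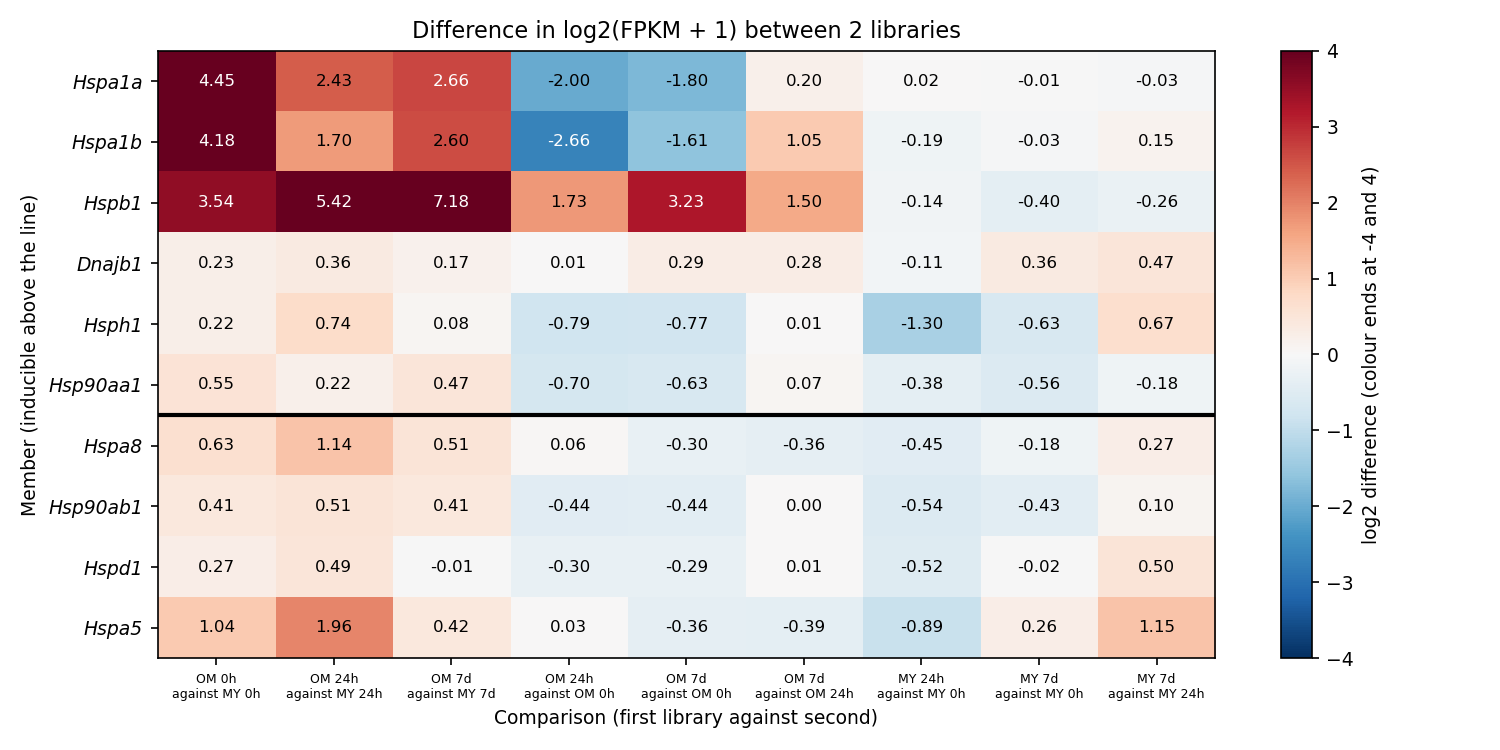
Difference in log2(FPKM + 1) for the 10 members (inducible above the line, constitutive below) in the 9 comparisons, with the value printed in each cell and colour from blue (lower in the library named first) to red (higher). The large values are those of Hspa1a, Hspa1b and Hspb1 between the tissues and within OM, from -2.66 to 7.18.

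Inducible and constitutive members were not 2 uniform classes. The median tissue difference of the 6 inducible members exceeded that of the 4 constitutive ones by 1.52 at 0 h, 0.39 at 24 h and 1.12 at 7 d (log2), but the inducible values split into 3 large ones and 3 small ones at each time. At 0 h, Hspa1a, Hspa1b and Hspb1 were at 3.54 to 4.45 and Dnajb1, Hsph1 and Hsp90aa1 at 0.22 to 0.55, within the constitutive range of 0.27 to 1.04 or just under it. The median is taken between the groups of 3 and depends on which genes are called inducible. With Hsp90aa1 and Hsph1 counted as constitutive, the naive value was 3.38.

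Per length, the inducible members made up 12.0%, 10.5% and 19.3% of the summed member FPKM in OM at 0 h, 24 h and 7 d and 10.3%, 11.6% and 9.99% in MY. The share in OM 7 d was the highest, and Hspb1 at 196 FPKM was the largest inducible member there. In the 5 other libraries Hsp90aa1, Dnajb1 or Hspb1 led the inducible sum, and Hspa8, Hsp90ab1 and Hspa5 together outweighed it. All 10 members took 0.286% to 0.359% of the FPKM of an OM library and 0.165% to 0.264% of that of a MY library, with the lowest share in MY 24 h.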

How the data were processed

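RNA of sorted macrophages was sequenced in 6 libraries, 1 for each of 2 tissues at 3 times, and each was assigned to its condition by its title. According to the methods of the study and the processing notes, the authors used FastQC 0.11.4 for read quality, STAR 2.4.2a for alignment against mm9 with UCSC gene models, and Cufflinks for expression levels. What they deposited is FPKM by gene symbol. Counts were not used here, so the reads behind a value are unknown and no interval or count test was made.

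Differences were taken on log2(FPKM + 1) with Python 3.11.15, numpy 2.4.6 and pandas 2.3.3 among genes with at least 1 FPKM in at least 1 library, and 2-fold is the threshold of the study's methods. Sequences were read with Biopython 1.88 and figures drawn with matplotlib 3.10.9. Reads of Hspa1a and Hspa1b, or of genes with processed copies, can be shared out differently by other settings. Named genes are the members, list genes at least 2-fold apart in a described comparison, Hsf1, Hsf2, Hspe1, Hsp90b1, Dnaja1, Bag3 and the 3 nearest profiles of Hspa1a, Hspa1b and Hspa8, with exceptions marked in the text. Members and lists were chosen with earlier results of these data known. The scripts were tested on simulated data. Alternatives were pseudocounts of 0.1 and 5, 2 rescalings, other filters and another division of the members, and, added after the data were seen, leaving out each library.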

Additional observations from a re-analysis of the deposited data

Results flagged for a closer look

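These results had opposite signs in OM and MY against the naive library of the same tissue. The differences between the tissues were not tested, since each value rests on 1 library per condition, and values near 0 can take either sign by chance. All are differences in log2(FPKM + 1).

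Hspb1 was higher in OM by 1.73 at 24 h and 3.23 at 7 d, and differed in MY by -0.14 and -0.40. Hspa1a differed at 24 h by -2.00 in OM and 0.0203 in MY. Hspa5 differed at 24 h by 0.0309 in OM and -0.89 in MY, and at 7 d by -0.36 in OM and 0.26 in MY. Hspa8 differed at 24 h by 0.0608 in OM and -0.45 in MY, and Dnajb1 by 0.0117 in OM and -0.11 in MY. With libraries rescaled to equal sums, the values of Hspa5, Hspa8 and Dnajb1 in OM at 24 h and of Hspa1a in MY at 24 h changed sign, so for these 4 the opposite signs depend on the scale.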

How the results depend on the processing

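Of 480 recomputed values, 440 stayed within 1.5 times (0.58 on the log2 scale) of the reported one, 40 moved further and 0 of the called ones changed sign. The median-ratio rescaling moved 0 of 108. With a pseudocount of 5, OM 7 d against OM 24 h had 1 member past 2-fold, and the inducible minus constitutive median was 0.79 at 0 h, -0.20 at 24 h and 0.45 at 7 d between the tissues. Hspa1b then came to 0.69 in OM 24 h against MY 24 h and 0.67 in OM 7 d against OM 24 h. With Hsp90aa1 and Hsph1 counted as constitutive, these medians were 3.38, 1.44 and 2.21, and the inducible share was 6.22% in OM 0 h and 6.72% in OM 24 h, and 3.63%, 4.92% and 5.10% in MY at 0 h, 24 h and 7 d. Rescaled to a sum of 1000000, MY 24 h against MY 0 h had 2 members past 2-fold. Without 1 library, 5 to 8 members had every OM above every MY library, with 8 without MY 0 h, and the share of all genes was not recomputed.

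The rescaling to equal sums shifted the median of all genes by -0.20 (0 h) and -0.28 (24 h) between the tissues, by -0.17, 0.13 and 0.31 in OM 24 h and 7 d against 0 h and 7 d against 24 h, and by under 0.1 elsewhere. The share of higher genes among those past 2-fold went from 50.4% to 38.6% and from 57.6% to 41.2% between the tissues at 0 h and 24 h, from 64.9% to 50.4% and from 60.9% to 81.8% in OM 24 h against 0 h and 7 d against 24 h, and from 64.8% to 49.4% and from 34.2% to 46.1% in the same MY comparisons. A filter of 10 FPKM lowered the genes past 2-fold from 3145 to 1928 and from 2494 to 1344 between the tissues at 24 h and 7 d, from 2396 to 1580, 1688 to 838 and 1508 to 933 in the 3 OM comparisons, and from 364 to 240 in MY 7 d against 0 h, since it tests fewer genes. With a pseudocount of 5, 1 of the 3 genes nearest to Hspa8 was kept. No paired analysis was possible because the conditions share only replicate number 1. A fit of tissue with the 3 times as blocks was left out, as it would take the times as replicates. Read depth is reported by the study as a range over its samples, not for each library. The number of reads behind a single value is unknown here, which limits values under 1 FPKM most.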

Other observations

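The genes nearest in profile to Hspa8 were Sco2, an assembly factor of cytochrome c oxidase, at 0.0539, Golt1b, of the Golgi, at 0.0573, and Reep5, of the ER membrane, at 0.0708. Reep5 was at 69.1, 71.5 and 49.4 FPKM in OM and at 43.7, 32.9 and 39.8 FPKM in MY. Hspa8 and Hspa5 lay at a distance of 0.319 from each other, and Hspa1a and Hspa1b also at 0.319. The equal distances do not mean equal likeness. Hspa1a and Hspa1b were each the 2nd nearest gene to the other among the 7998 genes. Hspa8 was the 55th nearest to Hspa5, and Hspa5 the 759th nearest to Hspa8. Hspb1 lay at 1.87 or more from each of the other 9 members.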
